A study of Mus musculus with 9 samples.

Results

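The genes described here are 9 endocytic C-type lectins of mouse myeloid cells: the CD209 family members Cd209a, Cd209b, Cd209d, Cd209e, Cd209f and Cd209g, the galactose-type lectins Mgl2 and Clec10a, and the mannose receptor Mrc1. They were chosen by name, with earlier results of these data known. Each was read from the probe set that names it alone and has the highest mean over all arrays. Of the 9 genes, 8 were measured in this way, among 22180 genes on the arrays. Cd209f had no probe set of its own and was not analysed here. Affymetrix arrays were hybridised with RNA of CD11b+Ly6G- cells, sorted 24 h after incision from plantar hindpaws. The mice were C57BL/6J males of 8 weeks. The cells were split by surface Ly6C into Ly6C low, Ly6C medium and Ly6C high gates, with 3 arrays each and 9 in total. All mice were wounded, and every gate was taken from CD11b-positive cells without Ly6G, a neutrophil surface protein. The labels name neither the number of mice nor any pooling, so p-values measure the spread between these arrays, which may be technical.

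C-type lectins bind sugars through a folded domain that usually holds calcium. The lectins described here sit in the plasma membrane, capture glycoproteins or microbes and carry them into endosomes, from which antigen can reach lysosomes and MHC class II. CD209 proteins and the mannose receptor bind mannose and fucose, whereas MGL proteins bind galactose and N-acetylgalactosamine. In skin, Mgl2 and Mrc1 are known from dermal macrophages and a subset of dendritic cells, and interleukin 4 raises Mrc1 and both MGL genes in cultured macrophages. Monocytes newly arrived from blood carry much Ly6C, whereas macrophages and dendritic cells of tissue often carry little.

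The sort was read from its own transcripts first. Ly6c2, a gene of Ly6C, averaged 8.33 ± 0.93 in Ly6C low, 11.22 ± 0.04 in medium and 12.27 ± 0.20 in high (log2 intensity, SD, n = 3). Its arrays in Ly6C low were at 7.69, 7.90 and 9.40, so replicate 3 of that gate stood nearer to the other gates. Ly6c1, also read as a sort marker, was dim throughout, averaging 2.75, 2.75 and 2.97 in low, medium and high. Itgam, the CD11b gene, averaged 10.58, 10.90 and 11.02 in low, medium and high, and Ly6g 3.58, 3.06 and 3.02. The median over the 22180 genes, called the array median below, was 4.24, 4.20 and 4.23 in low and at least 4.16 on every other array. All values below are log2 intensities as deposited, so a difference of 1 is a doubling, and levels of different genes were not compared as amounts. In these bulk samples, fewer cells of a type and less RNA per cell cannot be told apart.

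Of the 8 measured lectin genes, 6 were higher in Ly6C low than in Ly6C high and 0 were lower: Mgl2, Cd209d, Cd209g, Clec10a, Cd209b and Mrc1. Over all genes, 3.35% were higher at the same threshold (limma adjusted p under 0.05) and 2.32% were lower. The median log2 difference of the 8 was 1.74, against 0.0116 over all genes. The list was chosen with earlier results of these data known, so its counts describe it and do not test it. The arrays of the gates did not overlap for 7 of the 8, all higher in low, against 11.4% of all genes higher and 8.76% lower without overlap. Cd209e did not pass the test, and Cd209a gave different answers on its 2 probe sets. The calls of Mgl2, Cd209d and Mrc1 held without each of the 9 arrays in turn, whereas those of Cd209b and Cd209g were each lost without 7 of the 9. With an array left out, 4 to 6 members were called.

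**Figure D1:**
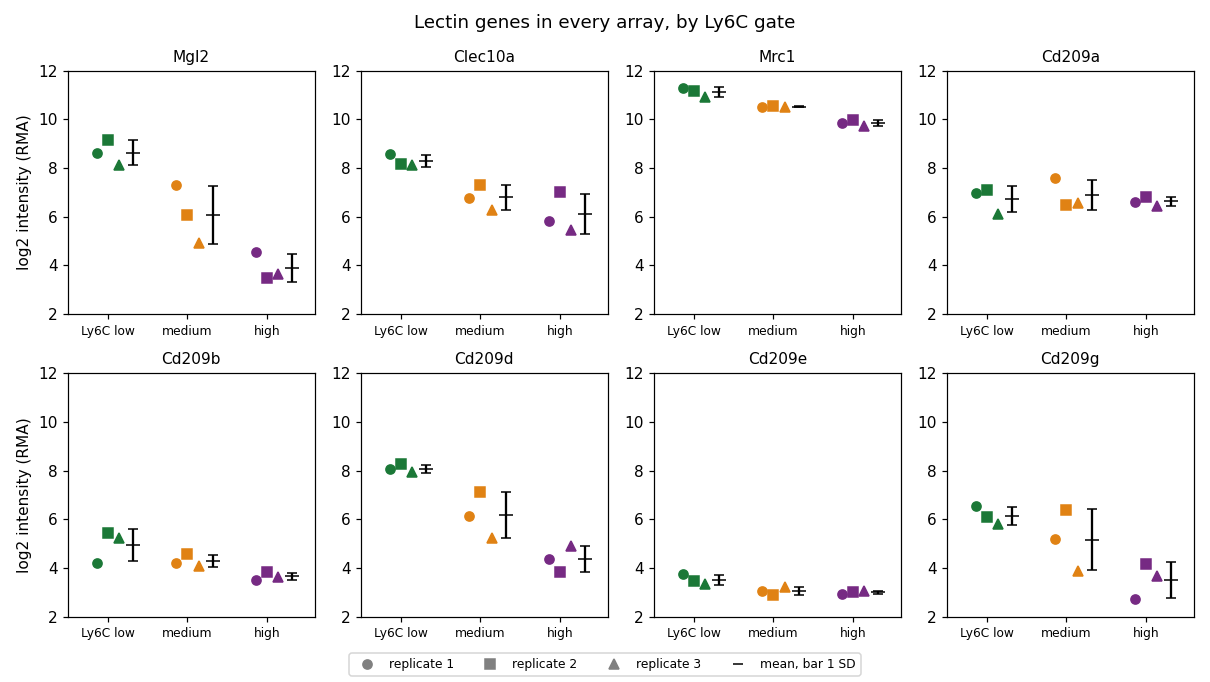
Log2 intensity (RMA) of the 8 measured lectin genes in every array, with Ly6C low (green), medium (orange) and high (purple) on the x axis, a marker shape per replicate number, and the mean with 1 SD in black (n = 3). The 3 Ly6C low arrays of Mgl2 sit between 8.14 and 9.14, all above the high arrays, which end at 4.53.

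Mgl2, which encodes the lectin CD301b, had the largest difference among the 8. It stood at 8.61, 9.14 and 8.14 in Ly6C low, at 7.29, 6.05 and 4.90 in medium, and at 4.53, 3.47 and 3.62 in high. Every low array was above every medium array, and every medium array above every high array. The log2 difference between low and high was 4.76 (SE 0.55, 95% interval 3.52 to 6.00), a 27.1-fold rise in low (limma adjusted p = 0.00208). The fold rests on a dim level, since 2 of the 3 high arrays were below the array median. Between low and medium the difference was 2.55 (1.31 to 3.79), outside the threshold (adjusted p = 0.0561). Centring the arrays or array weights put it inside, as did either filter on dim genes. Over the settings that keep all arrays of both gates, adjusted p ran from 0.0183 to 0.115. The 3 low arrays alone take Mgl2 through either filter, so the filtered values are no support. Between medium and high the difference was 2.21 (0.97 to 3.45, adjusted p = 0.290). The spread was widest in medium, with an SD of 1.19 against 0.50 in low and 0.57 in high. The RefSeq promoter of Mgl2 is shown because this gene moved most. It is the window from 250 bases before to 50 bases after the gene start, on GRCm38.p6 at chr11:70130107-70130406, + strand, and capitals mark GAGGAA, a core of sites for the myeloid factor PU.1.
Mgl2: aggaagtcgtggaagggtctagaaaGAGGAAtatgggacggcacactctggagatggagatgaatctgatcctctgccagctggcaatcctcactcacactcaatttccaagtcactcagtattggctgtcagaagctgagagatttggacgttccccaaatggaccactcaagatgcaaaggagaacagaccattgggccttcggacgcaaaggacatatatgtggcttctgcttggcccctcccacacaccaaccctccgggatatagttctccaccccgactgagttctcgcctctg
That match begins at position -225 from the gene start. GAGGAA on either strand occurs in 28.3% of 32851 mouse promoters of this length, so the match is a description only.

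Clec10a encodes MGL1 (CD301a), the lectin most like Mgl2, and both genes lie next to each other on chromosome 11. It stood at 8.57, 8.16 and 8.12 in Ly6C low, at 6.78, 7.31 and 6.29 in medium, and at 5.83, 7.02 and 5.43 in high. The low arrays were above all others, while medium and high overlapped because replicate 2 of high reached 7.02. Clec10a was 4.57-fold higher in low than in high (2.19 ± 0.39 SE on the log2 scale, limma adjusted p = 0.0146). Without replicate 1 of Ly6C low the limma adjusted p was 0.0611. Low and medium differed by 1.49 (0.60 to 2.38, adjusted p = 0.106).

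The log2 ratio of the paired MGL genes was taken within each array, where its level has no meaning and only its shift between gates does. Mgl2 minus Clec10a was 0.04, 0.98 and 0.01 in Ly6C low, 0.51, -1.26 and -1.39 in medium, and -1.31, -3.55 and -1.81 in high. All low values were above all high values, and the mean shift between these gates was 2.57. In high, 2 of the 3 Mgl2 arrays were below the array median. An exact permutation test over the 6 arrays (two-sided) gave p = 0.1, the smallest that 3 against 3 allows, so an unequal shift of these genes was not established. The same exact permutation test gave p = 0.3 for low against medium and p = 0.2 for medium against high.

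Mrc1, the mannose receptor CD206, was above the array median on all 9 arrays. It stood at 11.30, 11.16 and 10.93 in Ly6C low, at 10.50, 10.54 and 10.51 in medium, and at 9.84, 9.96 and 9.71 in high. The gates formed separate steps with no overlap, and medium varied least, with an SD of 0.02. Mrc1 was 2.45-fold higher in low than in high (1.29 ± 0.12 SE on the log2 scale, limma adjusted p = 0.000846). It was also 1.53-fold higher in low than in medium (0.61, 0.35 to 0.88, adjusted p = 0.0380). Leaving out any of 6 arrays put that comparison past 0.05 (up to 0.125 without replicate 1 of low). So did quantile normalization repeated (adjusted p = 0.0725) and a fit of only those gates (0.0745). Medium and high differed by 0.68 (0.41 to 0.95, adjusted p = 0.0814). The RefSeq promoter of Mrc1 (GRCm38.p6, chr2:14229164-14229463, + strand) is shown because it holds 3 matches to the same PU.1 core, read on the reverse strand as TTCCTC and given in capitals.
Mrc1: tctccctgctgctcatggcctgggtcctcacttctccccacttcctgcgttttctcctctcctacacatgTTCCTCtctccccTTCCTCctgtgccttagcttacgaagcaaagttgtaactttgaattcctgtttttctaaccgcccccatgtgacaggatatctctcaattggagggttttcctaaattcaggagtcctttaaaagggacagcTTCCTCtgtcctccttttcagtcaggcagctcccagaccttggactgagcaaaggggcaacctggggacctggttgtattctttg
The matches begin at positions -180, -167 and -35.

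Cd209d, which encodes SIGNR3, had the largest difference of the CD209 genes. It stood at 8.05, 8.26 and 7.93 in Ly6C low, at 6.14, 7.13 and 5.24 in medium, and at 4.38, 3.85 and 4.91 in high. No arrays overlapped between any pair of gates. Low exceeded high by 3.70 ± 0.43 (SE) on the log2 scale (95% interval 2.73 to 4.67, limma adjusted p = 0.00208). The difference between low and medium, 1.91 (0.94 to 2.88), missed the threshold (adjusted p = 0.0625), as did that between medium and high, 1.79 (0.82 to 2.76, adjusted p = 0.267).

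Cd209g, which encodes SIGNR7, stood at 6.53, 6.10 and 5.80 in Ly6C low, at 5.19, 6.40 and 3.88 in medium, and at 2.70, 4.17 and 3.67 in high. Low and high did not overlap, but medium ran across both, with replicate 2 inside the range of low and replicate 3 inside that of high. The gene was 6.21-fold higher in low than in high (2.63 ± 0.58 SE on the log2 scale, limma adjusted p = 0.0335), with an adjusted p of 0.120 without replicate 1 of low. All 3 high arrays were below the array median, so the fold rests on a dim level. The array has another probe set assigned to Cd209g together with Cd209f, which was left out. The RefSeq promoters of these genes are shown because they are near copies of each other, and capitals mark TATAAA, the TATA box, and TGANTCA, the AP-1 site (GRCm38.p6, chr8:4105715-4106014, - strand, for Cd209f, and chr8:4134486-4134785, + strand, for Cd209g).
Cd209f: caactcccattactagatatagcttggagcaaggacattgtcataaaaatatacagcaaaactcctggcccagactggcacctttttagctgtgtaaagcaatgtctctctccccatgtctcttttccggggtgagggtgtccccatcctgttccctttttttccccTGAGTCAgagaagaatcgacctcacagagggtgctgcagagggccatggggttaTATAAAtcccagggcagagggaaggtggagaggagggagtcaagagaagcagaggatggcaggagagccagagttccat
Cd209g: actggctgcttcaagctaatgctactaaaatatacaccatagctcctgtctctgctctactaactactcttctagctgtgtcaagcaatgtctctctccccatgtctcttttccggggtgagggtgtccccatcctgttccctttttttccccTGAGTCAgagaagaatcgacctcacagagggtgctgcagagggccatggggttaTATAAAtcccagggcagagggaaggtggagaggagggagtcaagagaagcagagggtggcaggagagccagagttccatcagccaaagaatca
The windows were identical over an unbroken run of 180 bases and at 80.9% of aligned positions, against 41.7% to 55.3% for the other pairs of member promoters. The AP-1 match begins at -83 in Cd209f and at -97 in Cd209g, and the TATA match at -29 and -43. TGANTCA occurs in 7.81% of the mouse promoters and TATAAA in 13.6%. Whether the Cd209g probe set also takes up signal from Cd209f was not tested.

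Cd209b and Cd209e were dim. Cd209b, which encodes SIGNR1, a receptor of splenic marginal zone macrophages, stood at 4.20, 5.42 and 5.21 in Ly6C low, at 4.20, 4.57 and 4.08 in medium, and at 3.50, 3.81 and 3.64 in high. It was above the array median on 3 of the 9 arrays, and replicate 1 of low and of medium had the same value. The difference between low and high was 1.30 (SE 0.29, limma adjusted p = 0.0330), 2.46-fold, and was lost at an adjusted p of 0.105 without replicate 2 of low. It was lost at 0.0941 with only the gates compared in the fit. Cd209e, which encodes SIGNR4, stood at 3.73, 3.47 and 3.34 in low, at 3.05, 2.90 and 3.22 in medium, and at 2.94, 3.01 and 3.05 in high. Its low arrays were above all others, yet all 9 values were below the array median. Low and high differed by 0.51 (0.23 to 0.80, adjusted p = 0.0512). The adjusted p was 0.0395 with a trended and robust prior and 0.0420 with array weights.

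Cd209a is the member most often used as a mouse dendritic cell marker, and its 2 probe sets disagreed. On the probe set with the higher mean, which the rule selects, it stood at 6.98, 7.10 and 6.10 in Ly6C low, at 7.58, 6.49 and 6.58 in medium, and at 6.62, 6.82 and 6.45 in high. The gates overlapped there, and low and high differed by 0.10 (SE 0.33, 95% interval -0.65 to 0.84, limma adjusted p = 0.944). On the other probe set it stood at 8.06, 7.72 and 7.90 in low, at 5.47, 6.09 and 5.63 in medium, and at 4.87, 4.67 and 5.95 in high. All low arrays were above all others on that probe set, while medium and high overlapped. Fitted over all 23521 single-gene probe sets, of which 5.55% were called, the second probe set was 6.64-fold higher in low than in high (2.73, 2.03 to 3.43, limma adjusted p = 0.00206). It was 4.48-fold higher in low than in medium (2.16, 1.46 to 2.86, adjusted p = 0.0136). With both probe sets averaged, the difference between low and high was 1.41 (adjusted p = 0.00319). This fit per probe set was added after the data were seen, and which transcript parts the probe sets cover was not tested. The RefSeq promoters of Cd209a (chr8:3748935-3749234) and of Cd209d (chr8:3878450-3878749), both GRCm38.p6 and - strand, are shown as the cluster genes with the smallest and the largest difference on the selected probe sets.
Cd209a: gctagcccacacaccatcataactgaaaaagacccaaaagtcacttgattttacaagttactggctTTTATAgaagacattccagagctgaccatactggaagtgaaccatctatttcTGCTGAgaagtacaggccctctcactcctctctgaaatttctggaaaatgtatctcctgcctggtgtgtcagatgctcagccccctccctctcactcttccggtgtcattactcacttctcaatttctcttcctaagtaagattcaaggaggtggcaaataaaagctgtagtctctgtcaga
Cd209d: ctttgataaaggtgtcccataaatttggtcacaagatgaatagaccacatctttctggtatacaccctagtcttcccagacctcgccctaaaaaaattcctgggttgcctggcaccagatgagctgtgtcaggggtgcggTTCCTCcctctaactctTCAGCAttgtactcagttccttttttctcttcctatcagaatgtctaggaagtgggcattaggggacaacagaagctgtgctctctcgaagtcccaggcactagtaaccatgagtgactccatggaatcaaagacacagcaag
Capitals in Cd209a mark TATAAA, read on the reverse strand at -184, and TGCTGA at -132. That TATAAA is a match of letters and was not taken as a TATA box. In Cd209d they mark GAGGAA at -110 and TGCTGA at -93, both read on the reverse strand. TGCTGA, a core of sites for MAF factors, occurs in 19.5% of the mouse promoters. The STAT6 motif, TTC and GAA with 4 bases between them, was found in the window of 1 of the 8 members with a RefSeq promoter, Cd209e, at position -79, against 6.95% of all promoters. The IRF motif, GAAA and GAAA with 2 bases between them, was found in none of the 8, against 3.44%. Those 8 include Cd209f and not Clec10a, for which no promoter was available here.

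**Figure D2:**
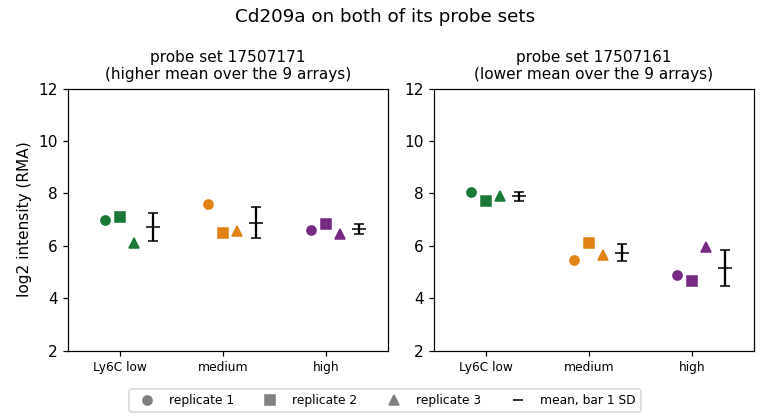
Log2 intensity (RMA) of Cd209a in every array on its 2 probe sets, by Ly6C gate (low, medium, high), with a marker shape per replicate number and the mean with 1 SD in black (n = 3). The gates overlap on the left, while on the right the low arrays, at 7.72 to 8.06, lie above all others.

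Ly6C medium had a mean between those of the other gates for 7 of the 8 genes, and its differences were not past the threshold against Ly6C high. With limma, 0 of the 8 genes passed between medium and high, against 4 at an unadjusted p under 0.05 (7.53% of all genes), while 0.239% of all genes passed (0.0406% higher and 0.198% lower). All 8 differences between medium and high were positive, with a median of 0.69, and the arrays did not overlap for 4, Mgl2, Cd209d, Cd209b and Mrc1, against 5.77% of all genes higher and 4.93% lower without overlap. Between low and medium 1 of the 8 passed, Mrc1, against 1.93% of all genes (1.38% higher in low and 0.541% lower). This count ran from 0 to 2 with an array left out and from 0 to 4 under the other settings. The 4 came from the stricter filter on dim genes, which kept 6 of the 8. In that setting 593 of 6306 genes were called, 385 of them higher in low. Mgl2 and Cd209d passed with both filters, and Clec10a with the stricter one only. The arrays of a single gate are enough to pass either filter. Without a filter, 5 of the 8 genes had low and medium arrays that did not overlap, all higher in low. Over all genes, 9.25% were higher and 7.58% lower without overlap. The calls over all genes between low and medium split into 307 higher and 120 lower as deposited, and into 242 and 162 with quantile normalization repeated.

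**Figure D3:**
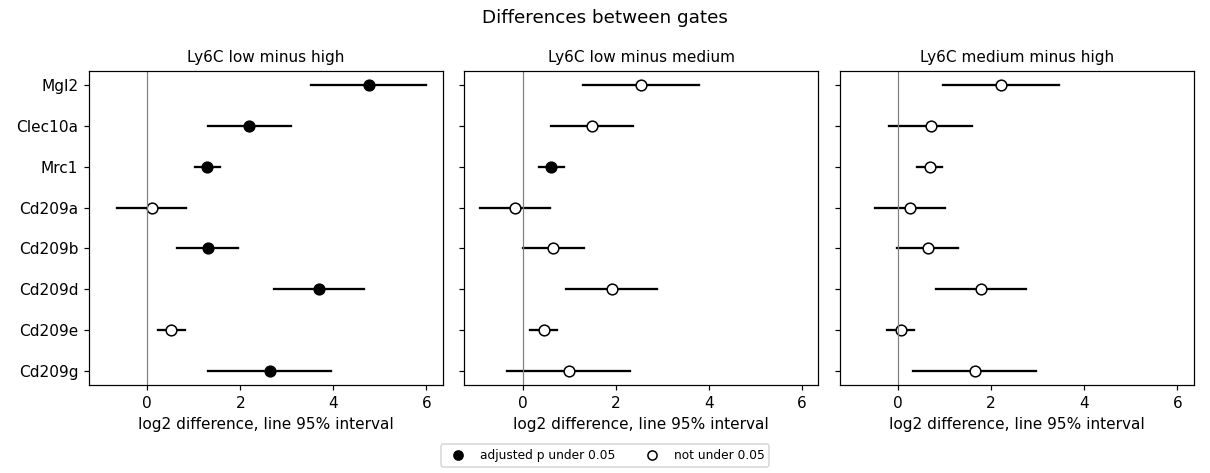
Log2 differences between gates for the 8 measured genes on the selected probe sets, as points with 95% intervals, filled where the limma adjusted p over all genes is under 0.05. In Ly6C low minus high, 6 points are filled, in low minus medium only Mrc1, and in medium minus high none.

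The place of medium was described by dividing medium minus high by low minus high. It came to 46.4% for Mgl2, 48.4% for Cd209d, 49.0% for Cd209b and 52.5% for Mrc1, the values nearest to the midpoint. Cd209g was at 62.4%, Clec10a at 31.9% and Cd209e at 11.3%. With an array left out, Clec10a ran from 19.7% without high replicate 3 to 43.8% without high replicate 2, and Cd209g from 38.8% without medium replicate 2 to 86.6% without medium replicate 3. Cd209e ran from -4.16% to 26.4%, and the other called members stayed between 33.7% and 60.9%. The second probe set of Cd209a was at 20.9%. The test of medium against the midpoint of low and high called 0 of the 8 with limma, against 0.00451% of all genes. At an unadjusted p under 0.05 it held 0 of the 8, against 8.34% of all genes. Neither count sets the members apart. The interval of that departure was narrow for Mrc1 (-0.20 to 0.26) and wide for Mgl2 (-1.25 to 0.91) and Cd209g (-0.82 to 1.47).

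Several members had the same lowest array within a gate. Replicate 3 was the lowest array of Ly6C low for 7 of the 8 genes and the lowest of Ly6C medium for 5. The same count was not made over all genes, so it does not set the members apart. Mgl2, Cd209d and Cd209g in that medium array, at 4.90, 5.24 and 3.88, were each the lowest of their gate. The mean over the 8 genes was 7.25, 7.35 and 6.95 in low, 6.34, 6.42 and 5.59 in medium, and 5.04, 5.26 and 5.06 in high. Resident macrophage markers moved with the lectins, with 16 of 18 higher in low than in high and 0 lower. Their mean over the list was 9.82, 9.80 and 9.52 in low, 8.52, 8.69 and 7.95 in medium, and 7.76, 7.71 and 7.30 in high, so medium replicate 3 was lowest there too. None of those 18 markers was below the array median on all arrays. Classical monocyte markers ran the other way, with 12 of 14 lower in low and list means of 8.11 to 8.85 in low, 9.85 to 9.89 in medium and 10.60 to 10.65 in high. Low replicate 3 was the highest of its gate for that list.

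**Figure D4:**
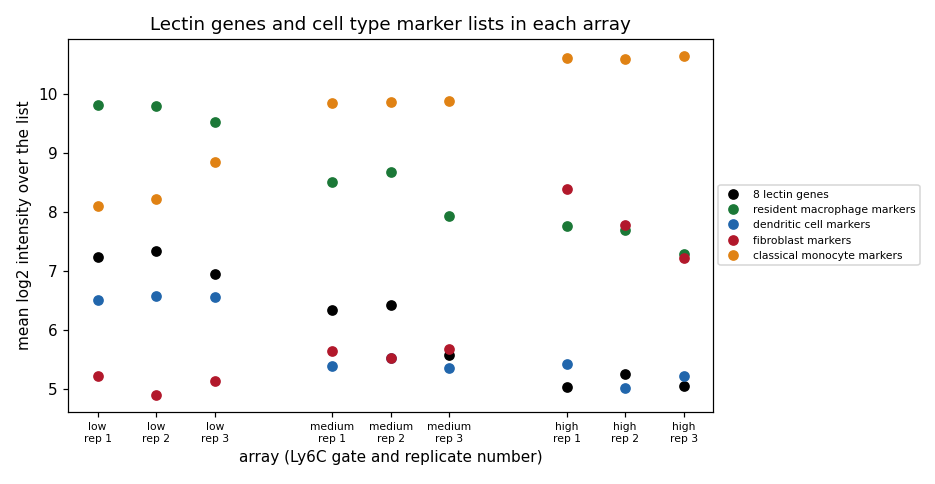
Mean log2 intensity over the 8 lectin genes and over 4 lists of cell type markers in each array, grouped by Ly6C gate (low, medium, high), 1 point per array. The lectin mean in medium replicate 3 (5.59) and the resident macrophage mean there (7.95) are both the lowest of that gate.

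Dendritic cell markers also moved with the lectins, with 7 of 16 higher in low than in high and 0 lower. Their list means were 6.52 to 6.59 in Ly6C low, 5.36 to 5.53 in medium and 5.03 to 5.43 in high, so medium and high overlapped. Among the 7 markers, medium stood at a median of 14.1% of the difference between low and high, against 35.2% among the 16 macrophage markers. These sets overlapped, since the dendritic cell markers ran from -21.2% to 23.8% and the lowest macrophage marker was at 4.41%. Both sets hold only markers called between low and high, and their medians were not tested against each other. Of the 7 called markers, Cd207 averaged 7.22, 4.78 and 4.38 and Flt3 6.61, 4.85 and 4.98 in low, medium and high. The other 9 of the 16 passed in neither direction. Fibroblast markers were lower in low for 10 of 11 genes, with list means of 4.91 to 5.23 in low, 5.53 to 5.68 in medium and 7.23 to 8.39 in high. Eosinophil markers had 3 of 7 higher and 0 lower, with list means of 4.25 to 4.43 in low, 3.69 to 4.05 in medium and 3.53 to 3.73 in high. The part of these cell types in the lectin values was not tested.

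The genes whose array values lay closest to those of each lectin were found by the root mean square difference over the 9 arrays, after each gene's own mean was removed. Predicted gene models and unnamed transcripts were left out, and 18660 genes were compared. For Cd209d they were Timd4 (0.334), Cd163 (0.492) and Klrd1 (0.536), and for Mgl2 they were Lyve1 (0.623), Cd163 (0.672) and Npl (0.674). Timd4 stood at 7.50, 7.59 and 7.63 in Ly6C low and at 5.51, 6.10 and 4.35 in medium, and averaged 4.13 in high. Its medium arrays had the same order as those of Cd209d. Timd4 was selected for closeness over these same arrays, so that order is no separate observation. Mrc1 had the closest matches, Dapk1 (0.105), Dab2 (0.114), an adaptor of clathrin-mediated endocytosis, and Itsn1 (0.123), an endocytic scaffold protein. Clec10a was matched by Pomk (0.243), Pon3 (0.266) and Wwp1 (0.314). Cd209g was matched by Slc40a1 (0.514), the iron exporter ferroportin, P2ry13 (0.519) and Ccl8 (0.527), and Cd209b by Ccdc181 (0.215), Nagk (0.250) and Mfsd8 (0.260). Among the members themselves, the closest pair was Cd209e and Mrc1 (0.356), and the farthest pair was Cd209a and Mgl2 (1.97). Cd209d lay closest to Cd209g (0.721) and then to Mgl2 (0.785), whereas Cd209g lay closest to Clec10a (0.628). Genes with a like size of difference come out close by this measure, and all were compared over the same 9 arrays.

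Genes beside the lectins on the chromosomes were read in the same comparison. Of 19 annotated protein-coding neighbours, 2 were higher in Ly6C low than in high and 0 were lower, against 5.67% of all genes called. Within the CD209 cluster on chromosome 8, Cd209c, a member of the family not listed above, averaged 8.20, 7.98 and 8.04 in low, medium and high (difference between low and high 0.16, limma adjusted p = 0.735). Its second probe set differed by 0.90 (adjusted p = 0.0610 over all single-gene probe sets). The lectin genes Fcer2a and Clec4g at the edge of that cluster differed by -0.03 and 0.30, neither past the threshold. Beside Mgl2, the liver lectin gene Asgr2 stood at 4.60, 5.47 and 4.10 in low, at 4.79, 4.68 and 4.10 in medium and at 3.29, 3.91 and 3.75 in high (adjusted p = 0.116), and Asgr1 differed by 0.15. Slc16a13, close to Clec10a, was higher in low by 0.87 (limma adjusted p = 0.0436), and missed the threshold when any of 8 arrays was left out (up to 0.139 without replicate 2 of low).

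The gene next to Mrc1 was also higher in low. Slc39a12, a zinc transporter gene, stood at 6.81, 6.80 and 5.18 in Ly6C low, at 4.83, 5.78 and 5.15 in medium, and at 3.95, 4.26 and 4.11 in high. Low and high did not overlap, and replicate 3 of low was within the range of medium. It was 4.46-fold higher in low than in high (2.16 ± 0.42 SE on the log2 scale, limma adjusted p = 0.0195), and missed the threshold when any of 5 arrays was left out (up to 0.0761 without replicate 1 of low). The other 5 neighbours of Mrc1 differed by 0.12 to 0.24, and none passed.

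**Figure D5:**
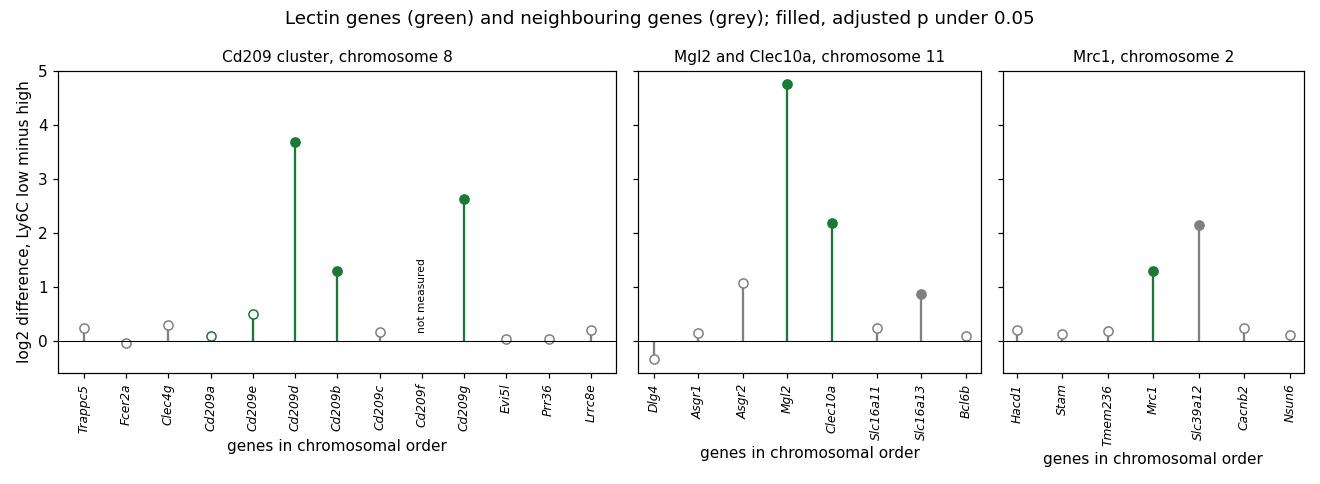
Log2 difference of Ly6C low minus high for the lectin genes (green) and their protein-coding neighbours (grey), in chromosomal order at the 3 loci, filled where the limma adjusted p is under 0.05. Slc39a12 beside Mrc1 (2.16) and Slc16a13 near Clec10a (0.87) are the only filled neighbours.

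Other lectins were read beside the members. Of 21 further endocytic lectin genes, 3 were higher in Ly6C low than in high, Colec12, Cd207 and Ly75, and 1 was lower, Thbd, with a median difference of -0.00427 over the list. Colec12, a scavenger receptor with a galactose-binding domain, stood at 8.79, 8.65 and 8.56 in low, at 5.72, 6.50 and 5.55 in medium, and at 5.85, 5.87 and 5.61 in high, so medium overlapped high (7.42-fold for low over high, limma adjusted p = 0.000366). Colec12 was also higher in low than in medium, by 2.74 (adjusted p = 0.00172). Ly75, which encodes DEC-205 of the mannose receptor family, was dim and differed by 0.59 (adjusted p = 0.0409), up to 0.128 with an array left out. Its relative Mrc2, the collagen receptor Endo180, differed by -0.24 (adjusted p = 0.561). Of 17 measured genes of the Dectin and DCIR type, 1 was higher, Clec4b1 (3.29-fold, adjusted p = 0.0203, lost without 5 of the 9 arrays), and 3 were lower, Clec12a, Clec4e and Clec4d. Clec4e missed the threshold without any of 6 arrays (up to 0.112) and Clec4d without any of 8 (up to 0.144). Their median difference was -0.30, against 1.74 for the 8 lectins described here.

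Interleukin 4 and interleukin 13 signal through genes read next. Of 18 genes of interleukin 4 and interleukin 13 signalling, 2 were higher in Ly6C low than in high, Irf4 and Il13, and 0 were lower. Irf4, a transcription factor of dendritic cells and alternatively activated macrophages, stood at 6.53, 6.98 and 6.42 in low, at 4.63, 4.66 and 4.80 in medium, and at 4.43, 4.47 and 5.12 in high (3.91-fold for low over high, limma adjusted p = 0.00143). Il4ra, the receptor chain of both cytokines, averaged 10.31, 9.55 and 9.69 in low, medium and high (adjusted p = 0.0946), and Stat6, the factor it activates, 8.42, 8.26 and 8.56 (adjusted p = 0.633). Il13 differed by 0.81 and was lost without 3 of the 9 arrays. Interleukin 4 response genes went both ways, with 7 of 17 higher, among them Ccl17 (4.62) and Ccl22 (4.57), and 3 lower, among them Chil3 (-3.43). Ccl17 and Ccl22 also count among the dendritic cell markers above, and Chil3 among the classical monocyte markers, so these lists are not independent. Retnla varied widely within gates, with 8.92, 9.89 and 7.97 in low, 6.77, 8.95 and 4.14 in medium, and 3.53, 5.76 and 3.99 in high (adjusted p = 0.0476, lost without 7 of the 9 arrays).

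Downstream of uptake, limma called 0 of 13 signalling adaptors of CD209 and Mrc1 between low and high, against 1 at an unadjusted p under 0.05 (17.9% of all genes). Of 20 genes of the endocytic route, 2 were higher in Ly6C low and 0 lower, both subunits of the AP-2 adaptor that loads cargo into clathrin-coated pits. Ap2m1 was 1.90-fold higher (log2 difference 0.92, adjusted p = 0.00267), and Ap2s1 1.88-fold (0.91, adjusted p = 0.0352, lost without 8 of the 9 arrays). Among 10 growth factor receptor and ligand genes, Flt3 and Kit were higher and Csf3r lower.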

How the data were processed

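The authors deposited log2 intensities per probe set, and the submitters' processing notes name RMA without a version. RMA corrects background, normalizes between arrays and summarizes probes, which compresses differences of dim genes. Exact ties between arrays occurred in 1213 to 2224 of 41345 probe sets for each pair of arrays. RNA was amplified before hybridization, per the labels' protocols. For arrays, their number limits the precision.

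Of 41345 probe sets, 23521 named 1 gene and were kept, 1814 named several and 16010 were not named here. A gene was read from its probe set with the highest mean, which left 22180 genes, with no filter on dim ones. Differences were tested with limma 3.58.1 in R 4.3.3 (lmFit and eBayes, two-sided) on all 9 arrays (residual df 6), with p-values adjusted by Benjamini-Hochberg over all genes and a threshold of 0.05. On simulated data for low against high, with 200 of 22180 genes changed, the fit found 71.2% of genes made to differ by 1 on the log2 scale, 95% of those differing by 2 and 97.5% of those differing by 3. Of its calls, 7.53% were genes left unchanged. The simulated noise was normal and independent between genes and arrays, with each gene's own spread, and only Ly6C low was changed. These shares need not hold for the real arrays. Every member was named whatever its test. Other genes were named as the 3 closest profiles of each called member, as up to 4 called genes of largest difference per list, as chromosomal neighbours, or as receptors, factors and sort markers of interest. The members and lists were chosen with earlier results of these data known. Names, neighbours and promoters came from RefSeq tables of GRCm38.p6. For the array's own build, the sources used here give none.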

Additional observations from a re-analysis of the deposited data

How the results depend on the processing

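The difference between Ly6C low and high kept its sign for Mgl2, Cd209d, Cd209g, Clec10a, Cd209b and Mrc1 under every alternative run, and Mgl2, Cd209d and Mrc1 kept their call. Cd209a was the exception among the members. Between low and medium its difference was -0.16 on the selected probe set, 1.00 with its probe sets averaged and 2.16 on the second probe set alone. With only the 2 gates compared in the fit, the genes called numbered 644 for low against high (1258 with all arrays), 1 for medium against high (53) and 211 for low against medium (427), a fit with fewer arrays. Leaving out 1 array at a time gave 596 to 1243 for low against high, 2 to 72 for medium against high, 119 to 522 for low against medium and 1 to 4 for medium against the midpoint. With the replicate number as a block, 1564, 61, 629 and 1 genes were called in these comparisons, and Mgl2 (adjusted p = 0.0215) and Clec10a (0.0455) passed between low and medium. No other call of a member changed with the block. Deviations of same-numbered arrays correlated at -0.0166 to 0.309, over 0.1 for 4 of 9 pairs (3 of 3 for replicate 3), against -0.183 to 0.151 for other pairs. Only 3 of 9 arrays matched their own number best in both other gates, so a pairing was not established. Filters on dim genes removed Cd209e, and the stricter one also Cd209b. Between low and medium, Mgl2 also passed with arrays centred on their median (0.0491), array weights (0.0228) and the filters (0.0284 and 0.0183), Cd209d with the filters (0.0338 and 0.0220), and Clec10a with the stricter filter (0.0394). Fewer genes are tested under a filter. The 3 low arrays alone take Mgl2, Cd209d and Clec10a through it, so the filtered values are no support.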
